A study of Mus musculus with 24 samples.

Results

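The adrenomedullin and endothelin genes described here are a set of 9 vasoactive signalling genes, namely the ligands Adm and Edn1, the receptors Calcrl, Ednra and Ednrb, the receptor activity-modifying proteins Ramp1, Ramp2 and Ramp3, and the converting enzyme Ece1. A probe set was counted when the array annotation paired it with exactly 1 of these symbols, and each gene was read from 1 probe set, chosen by its mean over all 24 arrays, the highest of the gene. This gave 8 of the 9 genes, among 18193 genes tested, with 17 probe sets in all, and Ednra was not analysed here. These means were 11.04 for Adm against 4.86 for its other probe set, 10.87 for Ramp1 against 7.53 and 6.88, and 9.64 for Ece1 against 7.33 and 3.74, all in log2 units. They were 3.85 for Calcrl against 2.56 and 2.54, and 10.16 for Ednrb against 10.13 and 9.41, while Ramp2, Ramp3 and Edn1 had 1 probe set each.

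Cerebral cortex was taken from adult heterozygous mice whose ribosomal protein L10a, fused to eGFP, was driven by the promoter of Aldh1l1, a gene of astrocytes. Every group carried this transgene. Immunoprecipitated ribosomes gave the bound fraction of 18 single animals, 6 each in sleep, in waking and after sleep deprivation. What stayed in the supernatant gave the unbound fraction, which came from all remaining cells and was hybridized as 6 pools of 3 animals, 2 per state, with animals 1 to 3 in one pool and 4 to 6 in the other. Sleeping mice were killed at 3 to 5 pm after a sleep bout of over 45 min with at least 75% of the previous 6 to 7 h asleep. Waking mice were killed at 3 to 5 am after over 1 h awake with at least 70% of the previous 6 to 7 h awake. Sleep-deprived mice had been kept awake for 4 h of the light period with unfamiliar objects. Waking therefore also differs in time of day from sleep and, by the light period of the deprivation, from sleep deprivation. The effects of state and hour cannot be told apart in either comparison. The hour at which sleep-deprived mice were killed was not given in the sources used here. Whether it matched that of the sleeping mice is therefore not known. Sleep loss and exposure to unfamiliar objects cannot be told apart either.

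Adrenomedullin is a peptide that widens vessels and tightens the endothelial barrier. Its receptor is Calcrl, which reaches the cell surface only together with a RAMP: Ramp2 or Ramp3 gives an adrenomedullin receptor and Ramp1 gives the receptor for calcitonin gene-related peptide. Endothelin 1 is made as a larger precursor that Ece1 cleaves, it constricts vessels through Ednra, and its other receptor, Ednrb, is well known on astrocytes, where it is linked to proliferation and the reactive state.

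The pull-down was checked on markers before the genes were read. Aldh1l1 stood at 10.5 to 11.3 log2 units in the 18 bound arrays and at 6.75 to 7.23 in the 6 unbound pools, and 19 of 19 astrocyte markers were higher in the bound fraction. Neuronal RNA remained in it, although 13 of 14 neuron markers were lower than in the unbound fraction. The median of the neuron list was -2.18 relative to the median of all genes. Snap25, a synaptic protein gene, still stood at 13.3 to 13.8 in bound RNA, against 13.9 to 14.2 in the unbound pools. Of 10 meningeal and fibroblast markers, 8 were higher and 1 lower in bound RNA, with a median of 1.14 relative to the median of all genes. Of 9 ependymal and choroid plexus markers 3 were higher and 0 lower. Of 14 markers of pericytes and smooth muscle 5 were higher and 5 lower, and of 17 endothelial markers 7 and 5. Of all genes 42.2% were higher and 27.2% lower. Which cells a higher bound value came from was not tested. In bulk RNA of this kind, fewer cells of a type and less RNA per cell cannot be told apart. Arrays of the same group shared 220 to 2400 exactly equal values in each of 48 pairs, whereas the 228 pairs from different groups shared 0 to 3, and which arrays were normalized together was not given in the sources used here. If normalization was run group by group, a shift between groups and a shift between runs cannot be told apart. The median of all genes itself was shifted from sleep by 0.09 in waking and 0.11 after sleep deprivation in bound RNA, and by 0.30 and 0.18 in unbound RNA. From waking to sleep deprivation it was shifted by 0.02 and -0.12, and from unbound to bound RNA by 0.16. The shift of the waking effect between fractions was -0.22 and that of the sleep deprivation effect -0.06. Differences below are therefore log2 differences relative to the median of all genes, with their standard error, while the adjusted p is that of the limma model on the values as fitted, over all 18193 genes.

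Adm was higher in astrocyte-bound RNA of waking and of sleep-deprived animals than of sleeping ones, and Edn1 in that of sleep-deprived animals. The rise of Adm after sleep deprivation was seen with only 1 of its 2 probe sets, that in waking with both. Among receptors and RAMPs, Ednrb, Ramp1 and Ramp2 were higher and Ramp3 was lower in bound than in unbound RNA. Of the 8 genes measured, 1 rose in bound RNA from sleep to waking (Adm), where 11.2% of all genes passed the threshold, 9.07% higher, and 2 rose after sleep deprivation (Adm and Edn1), where 14.3% passed and 12.3% rose. From waking to sleep deprivation 1 rose (Edn1), against 6.84% of all genes and 4.17% that rose. In the unbound fraction 2 passed from sleep to waking (Adm and Calcrl, both higher), against 6.32% of all genes and 5.71% that were higher. With the pool number as a block, or without any 1 of the 4 pools, 0 members and 0 of all genes passed there by limma, with 4 members at an unadjusted p under 0.05 under the block and 3 without each pool. No member passed for unbound sleep deprivation against sleep, where 2 had an unadjusted p under 0.05 and 1.87% of all genes passed. None passed against waking either, where 1 had an unadjusted p under 0.05 and 0.759% of all genes passed. Between fractions 5 of the 8 passed, 3 higher in the bound fraction (Ramp1, Ramp2 and Ednrb) and 2 lower (Ramp3 and, by 1 dim probe set of 3, Calcrl), where 69.4% of all genes passed, 42.2% higher and 27.2% lower. The waking and sleep deprivation comparisons share the sleep arrays, so they are not independent of each other. These shares cover dim and bright genes together. With only the 9097 genes at or above the median level tested, 86 passed in bound waking and 216 in bound sleep deprivation, and 51 between these 2 states.

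**Figure D1:**
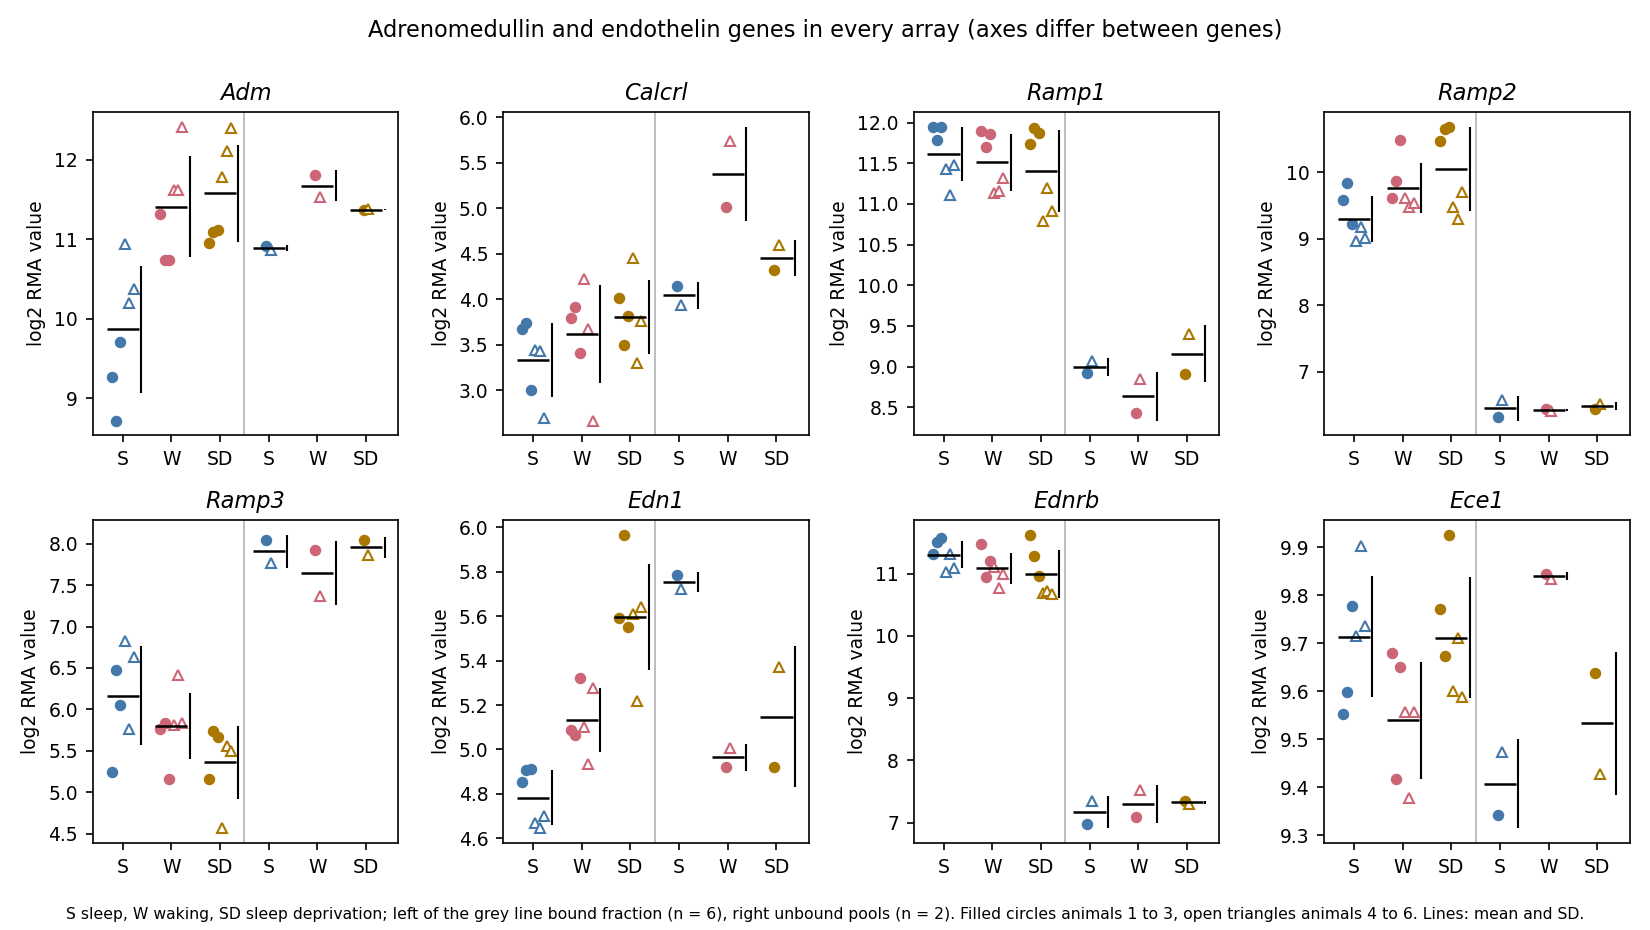
Log2 RMA value of each of the 8 genes in all 24 arrays, with the bound fraction (6 animals per state) left of the grey line and the unbound pools (2 per state) right of it; S is sleep, W waking and SD sleep deprivation, filled circles are animals 1 to 3 and open triangles animals 4 to 6, and lines give the mean and standard deviation. Adm and Edn1 are low in bound sleep arrays, and for Ramp1, Ramp2 and Ednrb all 18 bound arrays lie above all 6 unbound pools.

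The plot of all arrays by gene shows each value behind these counts. Axes differ between genes, since levels of different probe sets cannot be set against each other. How many of all genes separate fully between states or fractions was not counted, so a lack of overlap is given as a description only.

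The upstream sequences of the 2 ligand genes are shown because these genes moved with state in the bound fraction. They are the 250 bases before the annotated start in RefSeq (build GRCm38.p6, both on the plus strand), chr7:110627407-110627656 for Adm and chr13:42301226-42301475 for Edn1. Letters are lower case except matches to a motif searched on both strands.
Adm: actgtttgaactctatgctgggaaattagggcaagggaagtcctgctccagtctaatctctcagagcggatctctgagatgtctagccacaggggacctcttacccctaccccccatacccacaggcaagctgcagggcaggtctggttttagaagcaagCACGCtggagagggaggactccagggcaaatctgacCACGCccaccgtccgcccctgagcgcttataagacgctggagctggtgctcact
Edn1: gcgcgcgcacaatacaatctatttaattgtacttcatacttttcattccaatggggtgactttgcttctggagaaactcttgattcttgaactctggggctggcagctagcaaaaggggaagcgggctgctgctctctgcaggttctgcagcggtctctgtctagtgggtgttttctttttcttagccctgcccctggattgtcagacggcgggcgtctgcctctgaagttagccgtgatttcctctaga
The capitals in Adm are CACGC, which reads GCGTG on the other strand, the core of a hypoxia response element, at -90 to -86 and at -54 to -50 from the start. That core was searched as ACGTG or GCGTG, beside the E-box CACGTG, which holds ACGTG within it, the cAMP response element TGACGTCA, the AP-1 site TGANTCA, and the GATA core AGATAA or TGATAA. Of 27025 promoter windows of this length, 38.6% held the hypoxia core, 6.05% the E-box, 1.62% the cAMP element, 6.87% the AP-1 site and 17.0% the GATA core. The Edn1 window held none of these letters. Of the 8 member genes with an entry, Adm, Ramp3, Ednrb and Ece1 held the hypoxia core and none held the other 4 motifs. A match describes the letters only.

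By its brighter probe set, Adm was lowest in bound RNA of sleeping animals. Its values in sleep were 9.27, 8.72, 9.71, 10.94, 10.20 and 10.37 for animals 1 to 6. In waking they were 11.32, 10.73, 10.74, 11.62, 11.61 and 12.41. After sleep deprivation they were 10.95, 11.09, 11.12, 11.78, 12.11 and 12.39. All 6 sleep-deprived animals thus lay above all 6 sleeping ones, and waking overlapped sleep through a single high sleeping animal, animal 4. The group means were 9.87 ± 0.80 in sleep, 11.41 ± 0.63 in waking and 11.57 ± 0.61 after sleep deprivation (SD, n = 6 each). Relative to all genes, Adm was higher by 1.45 ± 0.37 in waking (SE, 2.73-fold, limma adjusted p = 0.0102) and by 1.60 ± 0.37 after sleep deprivation (3.02-fold, adjusted p = 0.00393). Sleep deprivation and waking differed by 0.14 ± 0.37 (adjusted p = 0.914), less than the spread within either group. Without the dimmer genes (mean below the median), where 86 of 9097 genes passed, the waking comparison had a limma adjusted p of 0.0548. It passed in 23 of 24 alternatives, whose adjusted p ranged from 4.27e-05 to that value.

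The level of Adm by its brighter probe set also differed by animal number. In every state animals 4 to 6 had higher values than animals 1 to 3, with means of 10.50 against 9.23 in sleep, 11.88 against 10.93 in waking and 12.10 against 11.05 after sleep deprivation. The difference was 1.09 ± 0.16 over the bound arrays (limma adjusted p = 2.01e-05), and 43.8% of all genes differed between these animals, 22.9% higher and 21% lower in animals 4 to 6. The labels use the division only to say which animals shared an unbound pool. Within animals 1 to 3, and within animals 4 to 6, this probe set did not overlap between sleep and waking or between sleep and sleep deprivation. By the dimmer probe set of Adm, described next, animals 4 to 6 did not all lie above animals 1 to 3 in any state.

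A dim second probe set of Adm gave another picture of sleep deprivation. Probe set 1416077_at had bound means near the lower end of the scale, with 4.68, 4.68, 4.46, 3.83, 4.69 and 4.46 in sleep. It read 5.31, 5.50, 4.98, 5.31, 5.60 and 5.36 in waking, and 4.96, 4.70, 4.89, 4.39, 4.84 and 4.38 after sleep deprivation. Every waking animal lay above every sleeping and every sleep-deprived animal, whereas sleep and sleep deprivation overlapped. It rose by 0.78 ± 0.16 from sleep to waking (limma adjusted p = 0.00117) and was lower by -0.68 ± 0.16 after sleep deprivation than in waking (adjusted p = 0.0153). Sleep deprivation against sleep gave 0.11 ± 0.16 (adjusted p = 0.401). The rise of Adm in waking was thus seen with both probe sets, and its rise after sleep deprivation with 1447839_x_at alone. The suffix _x_at marks a probe set in which some probes also match other sequences. Over the 18 bound arrays the deviations of the 2 probe sets from their group means correlated at -0.46, as a description of arrays that share 3 states and the difference between animals 1 to 3 and 4 to 6.

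**Figure D2:**
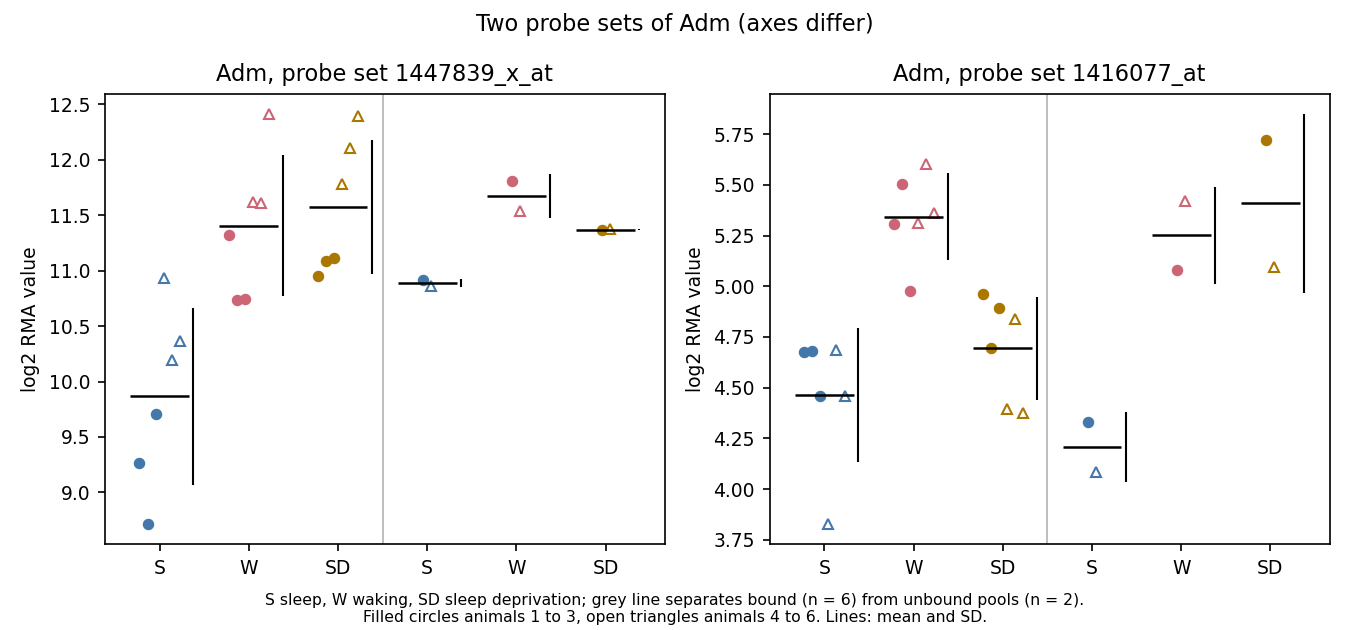
Log2 RMA values of the 2 probe sets of Adm in all arrays, 1447839_x_at (the one described as Adm) on the left and 1416077_at on the right, with axes that differ; S is sleep, W waking and SD sleep deprivation, filled circles are animals 1 to 3, open triangles animals 4 to 6, and lines give the mean and standard deviation. Waking lies above sleep in both panels, and the sleep-deprived bound arrays lie with waking on the left but near sleep on the right.

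In the unbound pools Adm read 10.91 and 10.86 in sleep, 11.81 and 11.54 in waking, and 11.37 and 11.37 after sleep deprivation. Both waking pools and both sleep-deprived pools lay above both sleep pools. The waking difference of 0.48 ± 0.17 (1.40-fold) had a limma adjusted p of 0.0481, and with the pool number as a block it had 0.0726. It also missed the threshold without any 1 of the 4 pools (0.118 to 0.172) and under repeated quantile normalization (0.189), and its alternatives ranged from 0.0114 to 0.464. Sleep deprivation against sleep gave 0.30 ± 0.17 (adjusted p = 0.144), and against waking -0.18 ± 0.17 (adjusted p = 0.353). Bound and unbound levels of Adm differed by -0.52 ± 0.28 (adjusted p = 0.254). The state differences of the 2 fractions differed by 0.97 ± 0.68 for waking (adjusted p = 0.625) and 1.29 ± 0.68 for sleep deprivation (adjusted p = 0.398), so the rise of Adm is not shown to be larger in the bound fraction. With 1416077_at the unbound differences from sleep were 0.74 ± 0.26 in waking (limma adjusted p = 0.0653) and 1.02 ± 0.26 after sleep deprivation (adjusted p = 0.0708). Its state differences differed between fractions by 0.048 ± 0.32 for waking (adjusted p = 0.855) and -0.91 ± 0.32 for sleep deprivation (adjusted p = 0.0872). In the order of group means of the brighter probe set, unbound waking came first and bound sleep last. Neighbours there from unbound waking down to unbound sleep deprivation differed by less than their standard deviations. By 1416077_at the unbound sleep pools read 4.33 and 4.08, so that order is not given for the gene.

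Edn1 rose in bound RNA with sleep deprivation. Its values in sleep were 4.86, 4.91, 4.91, 4.67, 4.64 and 4.70. In waking they were 5.09, 5.07, 5.32, 5.10, 4.93 and 5.28, and after sleep deprivation 5.59, 5.97, 5.55, 5.61, 5.22 and 5.64. Sleep overlapped with neither other state, and 5 of 6 sleep-deprived animals lay above all waking ones. The group means were 4.78 ± 0.12, 5.13 ± 0.14 and 5.60 ± 0.24 (SD, n = 6 each). Against sleep, Edn1 was higher by 0.70 ± 0.11 after sleep deprivation (SE, 1.63-fold, limma adjusted p = 0.000103). Against waking, which was sampled at another time of day, it was higher by 0.44 ± 0.11 after sleep deprivation (1.36-fold, limma adjusted p = 0.0165). Within animals 1 to 3 alone that difference was 0.52 (adjusted p = 0.0715) and within animals 4 to 6 alone 0.35 (adjusted p = 0.252), against 0.00464 as the lowest over all alternatives. Waking against sleep gave 0.26 ± 0.11 with adjusted p = 0.0540, and with the replicate number as a block the same difference passed, at 0.0212. Without the waking animal 5 it passed as well, at 0.0441, and over 22 alternatives the adjusted p ranged from 0.0188 to 0.479.

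The probe set of Edn1 was dim. Its mean over the bound arrays was 5.17 where the median gene had 7.13, so it had no value in the alternative that leaves dim genes out. Signal over background was not measured, so the folds given for Edn1 describe array values only. In all 22 alternatives that could be computed, sleep deprivation against sleep passed, with adjusted p from 2.21e-05 to 0.0239.

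In the unbound fraction Edn1 lay the other way round. The sleep pools read 5.78 and 5.72, the waking pools 4.92 and 5.01, and the sleep-deprived pools 4.92 and 5.37. Both sleep pools thus lay above all 4 pools of awake animals. The differences, -1.09 ± 0.20 for waking (limma adjusted p = 0.0619) and -0.78 ± 0.20 for sleep deprivation (adjusted p = 0.130), did not pass with 2 pools per state. The difference between the fractions in the state effect did pass, at 1.36 ± 0.22 for waking (adjusted p = 0.00424), where 5.6% of all genes passed, 1.89% with a higher and 3.71% with a lower bound effect, and 2 members did, Edn1 (higher) and Ece1 (lower). For sleep deprivation it was 1.48 ± 0.22 (adjusted p = 0.000646), where 4.89% of all genes passed, 2.91% with a higher bound effect, and Edn1 was the 1 member that did. Averaged over states, Edn1 differed by -0.28 ± 0.09 between fractions (adjusted p = 0.257). In the order of group means, unbound sleep and bound sleep deprivation led without differing beyond their standard deviations, and bound sleep was last.

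**Figure D3:**
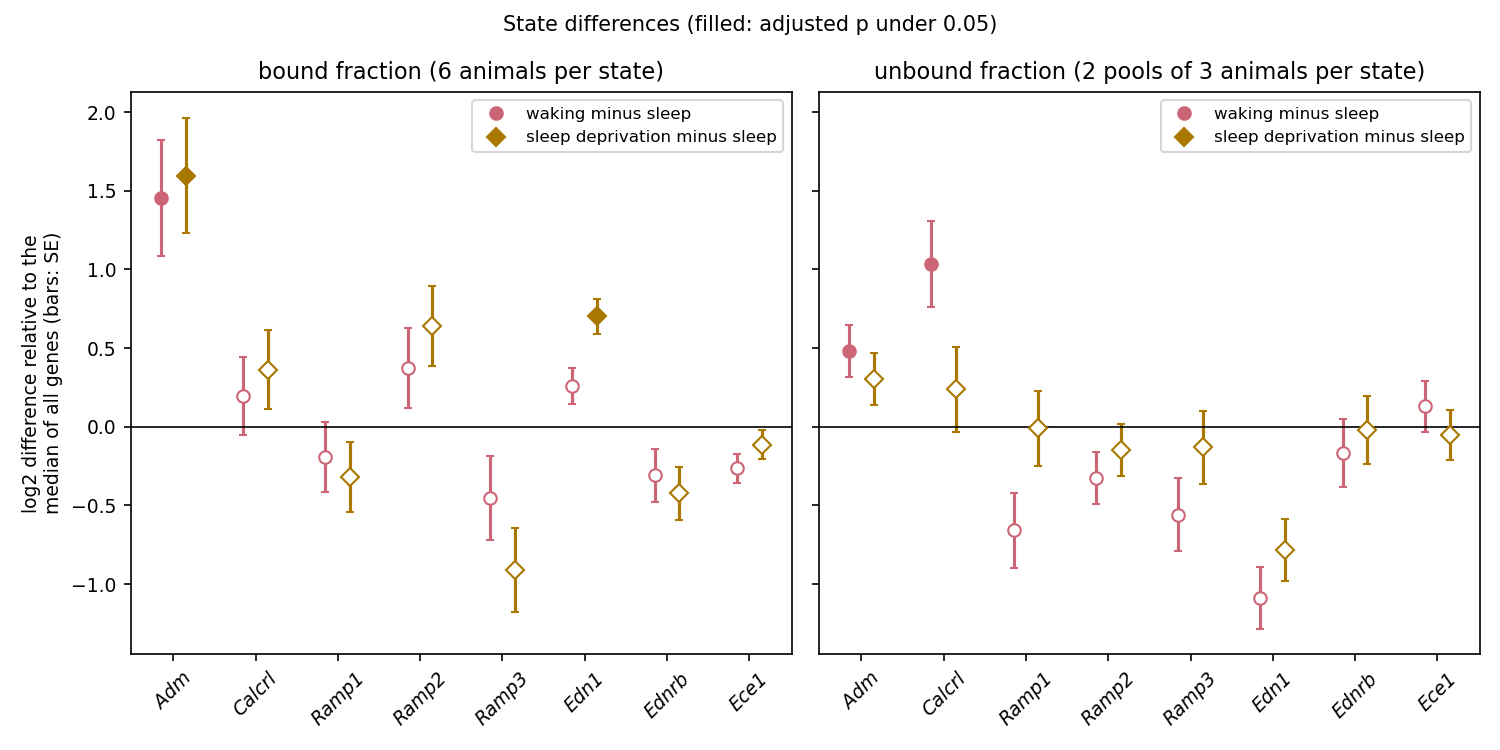
Log2 difference of waking (circles) and sleep deprivation (diamonds) from sleep for each gene, relative to the median of all genes, in the bound fraction (6 animals per state, left) and the unbound fraction (2 pools per state, right); bars are standard errors and filled symbols have an adjusted p under 0.05. In the bound fraction Adm lies at 1.45 and 1.60 and Edn1 at 0.26 and 0.70, while in the unbound fraction Edn1 lies at -1.09 and -0.78.

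The plot of state differences sets both fractions side by side. Filled symbols are few, and the receptors and RAMPs scatter on both sides of the median of all genes.

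Endothelium is a known source of both Edn1 and Adm, so endothelial markers are given beside them. Of 17 markers measured, 3 rose in bound RNA from sleep to waking (Esam by 1.03, Cldn5 by 0.67 and Tie1 by 0.67) and 2 after sleep deprivation (Erg by 0.86 and Tie1 by 0.44), where 9.07% and 12.3% of all genes rose. The list's medians were 0.24 and 0.13 relative to all genes. The mean log2 level of the list was 5.13 to 5.31 in bound sleep arrays, 5.43 to 5.67 in waking and 5.28 to 5.65 after sleep deprivation. In unbound pools it was 5.08 to 5.18 in sleep, 5.45 to 5.56 in waking and 5.54 to 5.56 after sleep deprivation. Cldn5, a tight junction gene of endothelium, had bound means of 5.16, 5.92 and 5.60, and Pecam1 of 4.57, 4.77 and 5.11, in the order sleep, waking, sleep deprivation. The other 14 and 15 endothelial markers did not pass, and the part of endothelial RNA in the values of Adm and Edn1 was not tested. Of other lists in bound RNA, 3 of 19 astrocyte markers rose in waking and 3 after sleep deprivation, against the same shares of all genes. Of 9 microglia markers 2 and 1 rose, and of 9 oligodendrocyte markers 2 rose in waking. Of 14 markers of pericytes and smooth muscle, 2 rose and 2 fell in waking, and 2 rose and 1 fell after sleep deprivation. Of 3 markers of red blood cells, 2 rose in waking and 3 after sleep deprivation. Of 9 ependymal and choroid plexus markers 0 passed, with medians of -0.80 in waking and -1.18 after sleep deprivation relative to all genes. Their mean level varied widely, at 6.17 to 8.78 in sleep, 5.35 to 8.68 in waking and 5.41 to 8.38 after sleep deprivation. Of 10 meningeal and fibroblast markers 0 passed, with medians of -0.38 and -0.30. The part of such cells in the members' values was not tested. For all these lists the shares of all genes were 9.07% and 12.3% that rose, and 11.2% and 14.3% that passed in either direction.

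The receptor Calcrl, the shared partner of all RAMPs, was dim on this array. Bound values ran from 2.67 to 4.46, with group means of 3.33 ± 0.40 in sleep, 3.62 ± 0.54 in waking and 3.81 ± 0.41 after sleep deprivation (SD, n = 6 each). The unbound pools read 4.15 and 3.94 in sleep, 5.01 and 5.75 in waking, and 4.32 and 4.60 after sleep deprivation. Of 18 bound arrays, 15 lay below all 6 unbound pools. Calcrl was lower in the bound fraction by -1.20 ± 0.20 (SE, limma adjusted p = 7.53e-05). Its bound mean of 3.59 lay above 11.4% of all genes and was not shown to exceed background, so no fold is given. Its 2 other probe sets, at means of 2.56 and 2.54, gave -0.028 and -0.13 (adjusted p = 0.821 and 0.713), so the difference rests on 1425814_a_at. In the unbound fraction Calcrl was higher in waking than in sleep by 1.03 ± 0.27 (adjusted p = 0.0459). With the pool number as a block the adjusted p was 0.0694, without any 1 of the 4 pools 0.128 to 0.174, and 1459536_at gave -0.22, with adjusted p from 0.0247 to 0.814 over 13 alternatives. The bound state groups of Calcrl overlapped in all 3 comparisons.

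Ednrb was the member with the largest difference between fractions. In bound RNA its lowest, median and highest values were 11.02, 11.31 and 11.57 in sleep. They were 10.77, 11.06 and 11.49 in waking, and 10.67, 10.84 and 11.63 after sleep deprivation. The unbound pools read 6.98 and 7.35 in sleep, 7.08 and 7.52 in waking, and 7.34 and 7.30 after sleep deprivation. The fractions were far apart, with every bound array above every pool, and the bound states overlapped. Ednrb was higher in the bound fraction by 3.71 ± 0.13 (13.0-fold, limma adjusted p = 1.86e-16). Its other probe sets gave the same direction, 3.06 for 1437347_at and 4.55 for 1426314_at. No bound state comparison of Ednrb passed the threshold, with means of 11.30, 11.09 and 10.99 in sleep, waking and sleep deprivation. For 1437347_at the state effects differed between fractions, by -0.89 for waking (adjusted p = 0.0278) and -0.98 for sleep deprivation (adjusted p = 0.0421). Those differences came with unbound values of 7.26 and 7.13 in sleep, 8.24 and 7.90 in waking, and 7.79 and 8.35 after sleep deprivation.

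**Figure D4:**
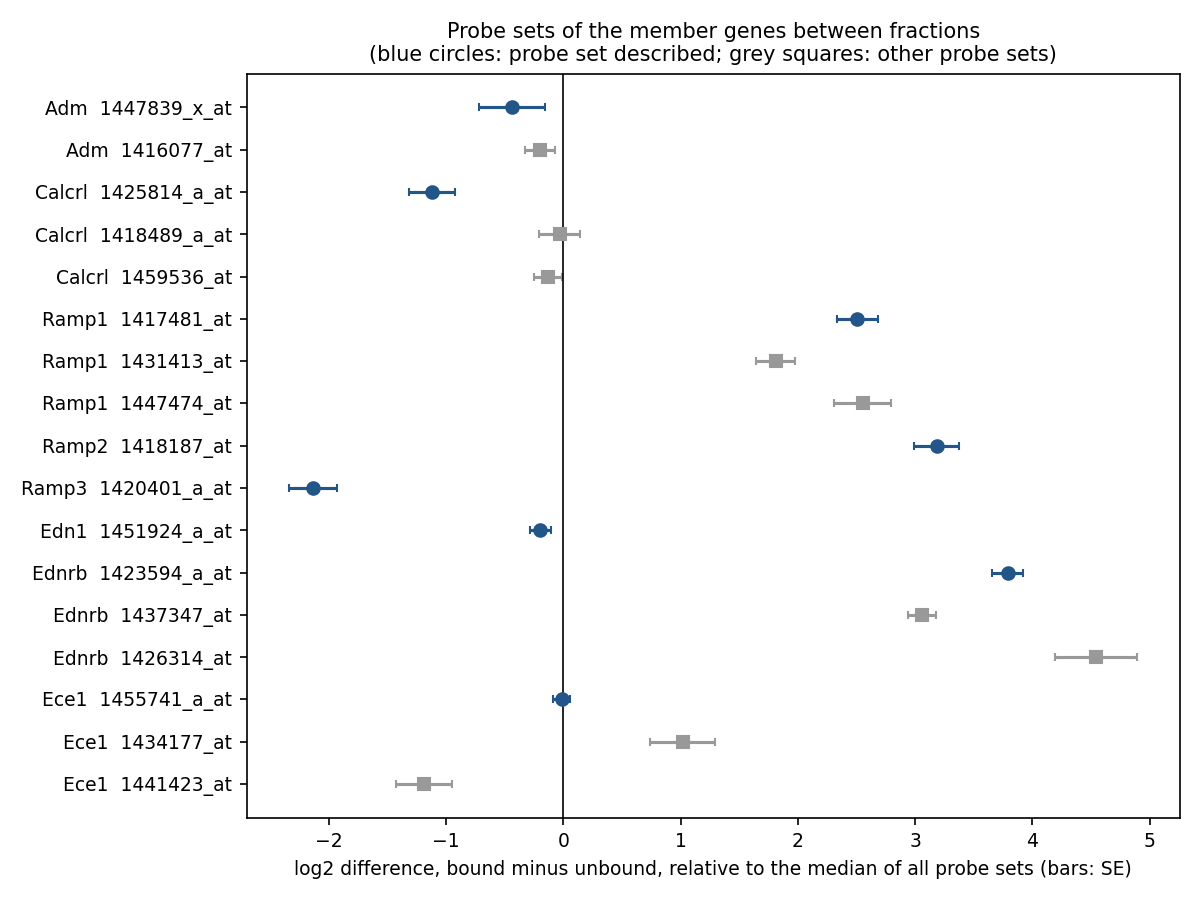
Log2 difference between bound and unbound RNA, over 18 bound arrays and 6 unbound pools, for all 17 probe sets of the 8 genes, relative to the median of all probe sets with 1 symbol; blue circles are the probe sets described, grey squares the others, and bars are standard errors. All probe sets of Ramp1, Ramp2 and Ednrb lie right of zero, and Ramp3 lies left of it. Of Calcrl the probe set described lies left of zero and the others close to it, and the probe sets of Ece1 lie on both sides.

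On the plot of probe sets by fraction the probe sets of Ednrb and of Ramp1 keep to one side. The scale there is relative to all probe sets, so a gene read on it differs slightly from the values given relative to all genes.

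Ramp1, which makes Calcrl a receptor for calcitonin gene-related peptide, was far higher in the bound fraction. In sleep its bound values were 11.94, 11.78, 11.95, 11.42, 11.11 and 11.48, and the unbound pools read 8.92 and 9.07. Waking bound values spanned 11.13 to 11.90 and the pools 8.42 and 8.85. After sleep deprivation the bound span was 10.79 to 11.93 and the pools read 8.91 and 9.41. All 18 bound arrays lay above all pools, and the difference was 2.42 ± 0.17 (SE, 5.36-fold, limma adjusted p = 2.14e-11), with 1.81 and 2.55 from the other 2 probe sets. State means in the bound fraction were 11.61 ± 0.33, 11.51 ± 0.35 and 11.41 ± 0.50 and overlapped. One other probe set, 1431413_at, rose by 0.62 ± 0.20 from sleep to waking (adjusted p = 0.0259) and was lower by -0.97 ± 0.20 after sleep deprivation than in waking (adjusted p = 0.00688), while 1447474_at passed in no bound state comparison.

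Ramp2, which makes Calcrl an adrenomedullin receptor, was likewise higher in the bound fraction. Its unbound pools kept between 6.32 and 6.57 in all states, and its bound values ran from 8.96 to 10.69. The difference was 3.10 ± 0.19 (8.56-fold, limma adjusted p = 2.26e-12). In bound sleep arrays it read 9.58, 9.84, 9.22, 8.96, 9.18 and 9.01, and after sleep deprivation 10.47, 10.66, 10.69, 9.48, 9.29 and 9.71. Waking lay between, at 9.61, 9.86, 10.48, 9.61, 9.48 and 9.54. Sleep and sleep deprivation overlapped over all animals but not within animals 1 to 3 or within animals 4 to 6. Sleep deprivation against sleep gave 0.64 ± 0.25 (SE) with adjusted p = 0.0568, and with the replicate number as a block the adjusted p was 0.00850. Leaving out the sleeping animal 2 or the sleep-deprived animal 4 or 5 also brought it below the threshold (0.0372, 0.0340 and 0.0219), and 23 alternatives ranged from 0.00271 to 0.147.

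Ramp3, the other partner for adrenomedullin, was on the opposite side of the fractions. All 18 bound arrays, at 4.56 to 6.83, lay below all 6 pools, at 7.37 to 8.05. The difference was -2.22 ± 0.21 (SE, 4.65-fold lower in the bound fraction, limma adjusted p = 1.25e-08). Its bound mean of 5.78 lay below the median gene at 7.13. Signal over background was not measured, so that fold describes array values only. The 3 RAMPs therefore split, with Ramp1 and Ramp2 higher in the astrocyte-bound and Ramp3 in the unbound fraction. Bound values of Ramp3 in sleep were 5.24, 6.48, 6.05, 6.83, 5.76 and 6.64, and after sleep deprivation 5.17, 5.75, 5.67, 4.56, 5.56 and 5.49. The groups overlapped, and the difference of -0.91 ± 0.27 had adjusted p = 0.0520. It passed under repeated quantile normalization (0.0302) and without the sleeping animal 1, the sleeping animal 5 or the sleep-deprived animal 2 (0.0125, 0.0476 and 0.0493), and 22 alternatives ranged up to 0.5003. Waking values of Ramp3 were 5.76, 5.83, 5.16, 5.81, 6.42 and 5.84, within the span of sleep but for the lowest.

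Besides Adm, 3 of the 8 genes differed by animal number, where 43.8% of all genes did, so the count is no result about these genes. Over the bound arrays animals 4 to 6 were lower than animals 1 to 3 by -0.68 ± 0.08 for Ramp1 (limma adjusted p = 1.73e-06), -0.68 ± 0.13 for Ramp2 (adjusted p = 0.000357) and -0.39 ± 0.10 for Ednrb (adjusted p = 0.00383). Adm moved the other way by its brighter probe set, and Calcrl, Ramp3, Edn1 and Ece1 did not pass. The differences between fractions exceeded these differences, at 3.71 for Ednrb, 3.10 for Ramp2 and 2.42 for Ramp1.

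Ece1, the enzyme that releases active endothelin, had group means between 9.41 and 9.84 by its brightest probe set. Its bound means were 9.71 ± 0.13 in sleep, 9.54 ± 0.12 in waking and 9.71 ± 0.13 after sleep deprivation (SD, n = 6 each). The pools read 9.34 and 9.47, 9.84 and 9.83, and 9.64 and 9.43 in the same order. Bound and unbound overlapped and differed by -0.10 ± 0.07 (limma adjusted p = 0.457). The probe sets of Ece1 disagreed, as 1434177_at gave 1.02 ± 0.28 (adjusted p = 0.00153) and 1441423_at -1.19 ± 0.24 (adjusted p = 0.000377), so no direction between fractions can be given for the gene. The waking effect differed between fractions by -0.39 ± 0.18 (adjusted p = 0.0460). That call held in 6 of 25 alternatives, and the other 2 probe sets gave 0.53 and 0.019. It was lost without either unbound sleep pool (0.210 and 0.0956) or either unbound waking pool (0.144 and 0.139). It was also lost without any 1 of the sleeping animals 3, 4, 5 and 6 and the waking animals 2, 4, 5 and 6 (0.0578 to 0.0688).

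Relatives of the ligands and receptors were read from a list of calcitonin family genes, of which 6 were measured. In bound RNA 1 rose in waking and 2 after sleep deprivation, where 9.07% and 12.3% of all genes rose, and the list's median was 0.02 and -0.01 relative to all genes. Iapp, which encodes amylin, rose by 1.17 in waking and by 1.78 after sleep deprivation, and Calcr, the calcitonin receptor, by 0.28 after sleep deprivation. In the unbound fraction Ackr3, a receptor that takes up adrenomedullin, was higher than in sleep by 1.06 in waking and 1.13 after sleep deprivation. Calcb, which encodes a calcitonin gene-related peptide, was lower there by -1.41 and -1.40. In these unbound comparisons 6.32% and 1.87% of all genes passed. With the pool number as a block, or without any 1 of the 4 pools compared, 0 of all genes passed in either, so these calls were lost as well. Both other endothelins differed between fractions, as did 69.4% of all genes, with Edn3 higher in the bound fraction by 1.06 and Edn2 lower by -0.41.

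Enzymes that process or break down such peptides formed a list of 12. In bound RNA 1 rose in waking, and 1 rose and 1 fell after sleep deprivation, with list medians of 0.04 and 0.08, where 9.07% and 12.3% of all genes rose. Kel, a surface enzyme able to cleave endothelin precursors, rose by 0.28 in waking and fell by 0.59 after sleep deprivation. Dpp4, a peptidase, rose by 0.83 after sleep deprivation. Furin, a protease that acts on the endothelin precursor before Ece1, was higher by 0.88 after sleep deprivation than in waking. Between fractions 6 were higher in bound RNA and 4 lower, against 42.2% and 27.2% of all genes, among them Ece2, a relative of Ece1, at 2.57 and Pam, which amidates adrenomedullin, at -1.12.

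Of 35 signalling genes downstream of the receptors, 2 rose in bound RNA after sleep deprivation, with a list median of -0.05, where 12.3% of all genes rose. They were Pde4d, which breaks down cAMP, by 0.65 and Adcy6, which makes it, by 0.47. Between fractions 12 were higher and 19 lower in bound RNA, with a median of -0.59, where 42.2% and 27.2% of all genes were. Plcb3, a phospholipase, was higher by 2.44 and Gnai2, a G protein subunit, by 2.78, and Rgs4, a regulator of G protein signalling, was lower by -2.97.

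The genes whose bound values ran most like those of the 2 ligands were sought among 9092 genes at or above the median level, over the 18 bound arrays. For Adm they were Ankrd54 (Pearson r = 0.92), Arglu1 (0.91), Pak1ip1 (0.90), Chordc1 (0.90) and Nat8f5 (0.89). For Edn1 they were Smim3 (0.92), Tsc22d3 (0.92), Hif3a (0.89), Rxra (0.88) and Lrrc8c (0.87). The arrays share 3 states and the difference by animal number, so these values describe the likeness only.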

How the data were processed

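Per the submitters' processing notes, the deposited values were log2 RMA values of Affymetrix mouse genome arrays, 1 table of 45101 probe sets. The version and the arrays normalized together were not given in the sources used here. After 64 control probe sets were left out, 34945 paired with 1 gene symbol, 932 with several and 9160 with none, and 18193 genes were tested. Linear models were fitted in limma 3.58.1 (R 4.3.3) to 18 bound, 6 unbound or all 24 arrays, with Benjamini-Hochberg adjustment over all genes and a threshold of 0.05, and were tested on simulated data. Replicates are separate animals or pools per the labels. The members and lists were chosen with earlier results of these data known. All members are named, and of each list up to 4 genes per direction with the smallest adjusted p.

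Main models had no block. Residuals of the 18 same-numbered bound pairs correlated at 0.268 to 0.530, and at -0.109 to 0.181 without the difference between animals 1 to 3 and 4 to 6. The unbound pools gave 0.00118 to 0.0288. The labels do not say what a number shares, so this pairing comes from the data. A fit with the number as a block was run, beside other scalings, filters, weights, probe sets and omitted arrays. The number of arrays limits precision. Gene identifiers matched RefSeq for 34741 probe sets, and promoter sequences came from RefSeq, with no entry for Ramp2. Figures were drawn with matplotlib 3.10.9.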

Additional observations from a re-analysis of the deposited data

Results flagged for a closer look

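The effect of waking on Edn1 differed between the fractions by 1.36 in log2 units relative to all genes, since its bound values were higher in waking than in sleep and its unbound values lower, and the test of the difference itself passed (limma adjusted p = 0.00424). The effect of sleep deprivation on Edn1 differed by 1.48 in the same direction (adjusted p = 0.000646). Both rest on unbound pools of 2 per state, and each was called in 22 of 22 alternatives that could be computed, the omission of each array among them. The effect of waking on Ece1 differed by -0.39 (adjusted p = 0.0460), which held in 6 of 25 alternatives. In a search for single distant arrays, 0 of 24 groups of bound values held one.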

How the results depend on the processing

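Over 31 results, 690 alternatives were computed, and 606 kept direction and side of the threshold, 40 lost the threshold, 30 gained it and 14 changed sign. With the block (animal number in bound, pool in unbound RNA), 2 members passed in bound waking against sleep, where Edn1 joined (0.0212), and 0 in unbound waking against sleep (4 at an unadjusted p under 0.05). The block brought Ramp2 below the threshold after sleep deprivation (0.00850) and changed no other member's call. It moved the calls over all genes from 2039 to 3064 in bound waking, from 1244 to 1913 in bound sleep deprivation against waking, and from 1149, 341 and 138 to 0 in the unbound comparisons. With animals 1 to 3 against 4 to 6 as a block, 2 passed in bound waking and 4 after sleep deprivation. With the mean of the probe sets 2 and 5 passed, and with the spread of all 24 arrays 2 and 4. Without dim genes (mean below the median of all genes), 5 members remained to be tested, and 0 passed in bound waking (1 at an unadjusted p under 0.05), 1 in bound sleep deprivation, 0 in sleep deprivation against waking, 1 in unbound waking, 3 between fractions and 0 in both differences of state effects. Sleep deprivation against waking gave 0 members within animals 1 to 3 and within animals 4 to 6 (2 each at an unadjusted p under 0.05). Unbound waking gave 0 under repeated quantile normalization and under centring (5 each at an unadjusted p under 0.05). An intensity trend gave 1 in unbound sleep deprivation, and centring gave 8 between fractions. The waking effect differed between fractions for 1 member with the mean of the probe sets, repeated quantile normalization, centring and the intensity trend.

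With each array left out in turn, 1 to 2 members passed in bound waking, 2 to 3 in bound sleep deprivation, 1 in sleep deprivation against waking, 0 in each unbound comparison, 5 between fractions, 1 to 2 for the difference in waking effect and 1 for that in sleep deprivation effect. Values that changed sign were those of Adm in sleep deprivation against waking, at -0.27 with the mean of the probe sets, -0.68 with 1416077_at and -0.018 without the sleep-deprived animal 6 (up to 0.34 without another array), and in the unbound fraction at 0.051 and 0.28 for the first 2. Adm also gave -0.91 with 1416077_at for the difference in sleep deprivation effect. Calcrl with 1459536_at gave -0.22 for unbound waking, 0.12 for unbound sleep deprivation against waking and 0.32 for the difference in waking effect. Ece1 with 1434177_at gave -0.34 for unbound waking, 1.02 between fractions and 0.53 for the difference in waking effect, which was 0.037 with the mean of the probe sets and 0.019 with 1441423_at. The cause of these changes was not tested.

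Over all genes, repeated quantile normalization moved the share of higher calls from 80.9% to 55.4% in bound waking, from 85.9% to 56.9% in bound sleep deprivation, from 76.0% to 49.3% in unbound sleep deprivation and from 33.7% to 54.7% for the difference in waking effect, and centring moved it from 60.8% to 39.7% between fractions. Counts ranged from 86 to 3385 in bound waking, 216 to 4102 in bound sleep deprivation and 51 to 2164 against waking. In the unbound comparisons they ranged from 0 to 2935, 0 to 1259 and 0 to 800. They ranged from 7148 to 13475 between fractions, and from 44 to 1822 and 13 to 1546 for the differences of state effects. Outside the unbound comparisons, the lowest count was that without genes below the median level, where 9097 genes were tested. In bound waking 86 of these passed, against 2039 of 18193 genes. The bound state shares of all genes therefore do not hold for bright genes alone. Bound means of Calcrl, Edn1 and Ramp3 were 3.59, 5.17 and 5.78, against 7.13 for the median gene, and signal over background was not measured.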

Other observations

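Of 41 other vasoactive genes measured in bound RNA, 6 rose and 1 fell in waking and 8 rose after sleep deprivation, with medians of 0.04 and 0.06 relative to all genes, where 9.07% and 12.3% of all genes rose. Npr1, the natriuretic peptide receptor that makes cyclic GMP, rose by 1.13 in waking and by 1.06 after sleep deprivation. Vip, which encodes a vessel-widening peptide of interneurons, rose by 0.79 and 0.67. Agtr2, an angiotensin receptor, and Kng1, which encodes the precursor of bradykinin, rose by 0.55 and 0.63 in waking, and Gucy1a1, a subunit of the nitric oxide receptor, fell by 0.60. Tacr1, the receptor for substance P, and Uts2, which encodes urotensin, rose by 0.62 and 0.36 after sleep deprivation. Between fractions the peptide gene Apln was higher in bound RNA by 4.09 and Ptgs2, a prostaglandin synthase gene, lower by -3.92.

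Of 22 hypoxia-responsive genes measured in bound RNA, 3 rose in waking and 4 after sleep deprivation, with medians of 0.07 and 0.02, where 9.07% and 12.3% of all genes rose. Hif3a, a hypoxia-inducible factor subunit, rose by 1.10 in waking and by 2.57 after sleep deprivation. Kdm3a, a histone demethylase, rose by 0.97 and Egln2, an oxygen sensor, by 0.25 after sleep deprivation, and Pfkfb3, a regulator of glycolysis, by 0.61 in waking. Ddit4, a stress-induced gene, rose by 0.22 and 0.21.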
